A study of Mus musculus with 1152 samples.

Results

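A group of 9 genes of brain macrophages was followed through the read counts of 857 wells of sorted mouse brain cells. They were taken by name from the 46517 genes of the table. Cx3cr1, P2ry12, Tmem119 and Csf1r are surface genes of microglia, C1qa, C1qb and C1qc encode the 3 chains of complement C1q, Mrc1 marks macrophages of the brain's borders, and Cd74 encodes the invariant chain of MHC class II. The wells came from adult C57BL/6 mice of both sexes and of a pair of reporter lines, with no untreated or mutant group. Pdgfra-H2BGFP mice carry a nuclear green protein in cells that use Pdgfra, a gene of oligodendrocyte precursors (OPCs) and fibroblasts. The labels spell the other line Tagl-CREERT2;Ai14: there a recombinase that needs tamoxifen switches on a red protein. Vascular fragments were enriched with beads against CD31, an endothelial protein, and fluorescent cells were then sorted to wells for SMART-seq2, which copies full-length cDNA. Neither reporter, as the labels name them, is driven by a microglial gene. The labels tie no well to a line, animal or plate, so all wells are 1 sample and no test was possible.

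Microglia are the resident macrophages of the brain tissue, and they live on signals through the Csf1r receptor. Cx3cr1 receives the neuronal chemokine fractalkine, P2ry12 senses ADP and steers microglial processes to vessel injury, and Tmem119 is a transmembrane protein used as a microglial marker. C1q opens the classical complement cascade and tags synapses for removal, and microglia are its main source in the brain. Border macrophages, which sit around vessels and in the meninges, share Csf1r and C1q with microglia and add Mrc1, the mannose receptor.

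The C1q genes lie side by side on the minus strand of chromosome 4 (GRCm38), with C1qb at chr4:136880129-136886187, C1qc at chr4:136889804-136893065 and C1qa at chr4:136895917-136898803. The 250 bases before the RefSeq start of C1qb (GRCm38.p6) are shown because C1qb had the highest level per length of the 3 chains, and those of P2ry12 as an example of a receptor gene. Capitals mark GAGGAA, a PU box bound by the myeloid factor PU.1, or TGCTGA, a Maf half-site, both searched on either strand.
C1qb (chr4:136886201-136886450, minus strand): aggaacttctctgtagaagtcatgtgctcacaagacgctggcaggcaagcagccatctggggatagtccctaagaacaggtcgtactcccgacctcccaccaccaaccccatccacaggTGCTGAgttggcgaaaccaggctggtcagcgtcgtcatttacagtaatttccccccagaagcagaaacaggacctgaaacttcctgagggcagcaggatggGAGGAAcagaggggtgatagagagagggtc
P2ry12 (chr3:59262986-59263235, minus strand): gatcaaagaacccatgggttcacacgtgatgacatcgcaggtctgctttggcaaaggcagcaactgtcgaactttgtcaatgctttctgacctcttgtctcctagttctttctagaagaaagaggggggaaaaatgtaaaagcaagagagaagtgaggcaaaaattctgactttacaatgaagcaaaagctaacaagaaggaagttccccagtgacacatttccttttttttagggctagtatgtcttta
The C1qb window held 1 PU box, 30 bases before the start, and 1 Maf half-site, 131 bases before it, and the P2ry12 window held neither. The C1qc window held 1 PU box, the Mrc1 window 3, and the Cx3cr1 window neither motif. Of 32851 RefSeq promoter windows of this length, 23.3% held the PU box and 16.1% the Maf half-site. A match is a run of letters, not a measured binding site.

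Of 1152 wells in 3 sets of 384, told apart by the prefixes 1025s_182s, 600s_182s and 613s, 857 had at least 50000 reads, and these had 50002 to 1451280 reads (median 279874). Set 1025s_182s kept 239 wells, 600s_182s 349 and 613s 269. Counts were scaled to CPM, counts per 1e+06 reads of the well. Myelin transcripts were spread widely, with 724 of the 857 wells holding at least 3 of 6 oligodendrocyte genes at 200 CPM or more, so a rule met by a well does not say that the well held a pure cell. Counts of a gene in a well stayed near or under its exonic length: of 31163 genes of at least 500 bases, 35 passed 1 read per exonic base in any well and 0 passed 2. C1qb reached 1.18 reads per base, Cd74 1.19 and C1qa 0.973 in their richest wells. Whether this bounds the CPM of short genes in strong wells was not tested.

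All 9 genes were present, and each had most of its reads in few wells. Over all 857 wells the levels, as CPM with an exact Poisson 95% interval that covers counting error only, ran from 143 CPM (141 to 144) for Csf1r and 105 CPM (104 to 106) for C1qb down to 27.5 CPM (26.9 to 28.1) for Cd74 and 3.59 CPM (3.37 to 3.81) for Mrc1. Per kilobase of exon the order changed: C1qb had 96.3 CPM per kb, C1qa 76.2, C1qc 43.0, Tmem119 37.1, Csf1r 24.7, P2ry12 20.0, Cx3cr1 17.0, Cd74 16.4 and Mrc1 0.563. Thus the C1q chains led on a per-length scale, and neighbours such as Cx3cr1 and Cd74 lay close together. Csf1r shares 873 exonic bases with Hmgxb3 on the other strand, and the strand setting of the counting is not given in the sources used here, so reads of the 2 genes cannot be told apart in that stretch.

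A well was called microglial when at least 3 of 7 genes (Cx3cr1, P2ry12, Tmem119, Csf1r, C1qa, C1qb and C1qc) had 200 CPM or more. This held for 56 of 857 wells: set 1025s_182s held 26 of them, set 600s_182s 4 and set 613s 26. Of the rest, 723 wells had none of the 7 genes at that level, 65 had 1 and 13 had 2. At the edge of the rule, wells with 2 genes had a median summed level of the 7 genes of 1006 CPM and wells with 3 genes 1957 CPM, while the 15 wells with all 7 genes had 15114 CPM. The wells form a graded range, not separate classes.

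The name of the wells was checked with 16 microglial markers outside the 9 genes. At least 3 of them reached 200 CPM in 50 of 56 microglial wells (89.3%, 78.1 to 96.0, exact Clopper-Pearson 95% interval, as for all shares below), against 11 of 801 other wells (1.37%, 0.687 to 2.44). Single markers differed: Ctss reached 200 CPM in 49 microglial wells, Siglech in 18, Gpr34 in 17 and P2ry13 in 14. Any 3 of the 16 sufficed, and whether other myeloid cells would meet this rule was not tested. T and B lymphocyte markers met such a rule in 0 wells. Of the 56 microglial wells, 2 met the border macrophage rule and 1 the neutrophil and monocyte rule. Pure wells were few, however: 5 of the 56 met no rule of another cell type, or 15 when the oligodendrocyte rule was set aside.

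The levels in microglial wells are given as a description, since the rule used them, and 3 of the 56 wells met it through the C1q chains alone. C1qb was at 200 CPM or more in 52 of the 56 wells (lowest 0, median 963, highest 6013 CPM), C1qa in 51 (3.43, 622 and 5010 CPM) and C1qc in 49 (0, 624 and 9926 CPM). Csf1r reached it in 44 wells (0, 663 and 15569 CPM), Cx3cr1 in 33 (0, 440 and 8689 CPM), P2ry12 in 31 (0, 219 and 5268 CPM) and Tmem119 in 24 (0, 89.8 and 10666 CPM). A microglial well could lack a receptor: Cx3cr1 had no read in 9 wells, P2ry12 in 13, Tmem119 in 12 and Csf1r in 4. Of the C1q chains, C1qb had no read in 2 wells and C1qc in 1, while C1qa was read in every one, if only at 3.43 CPM in its lowest. Mrc1 had no read in 51 of the 56 wells and Cd74 in 33.

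**Figure D1:**
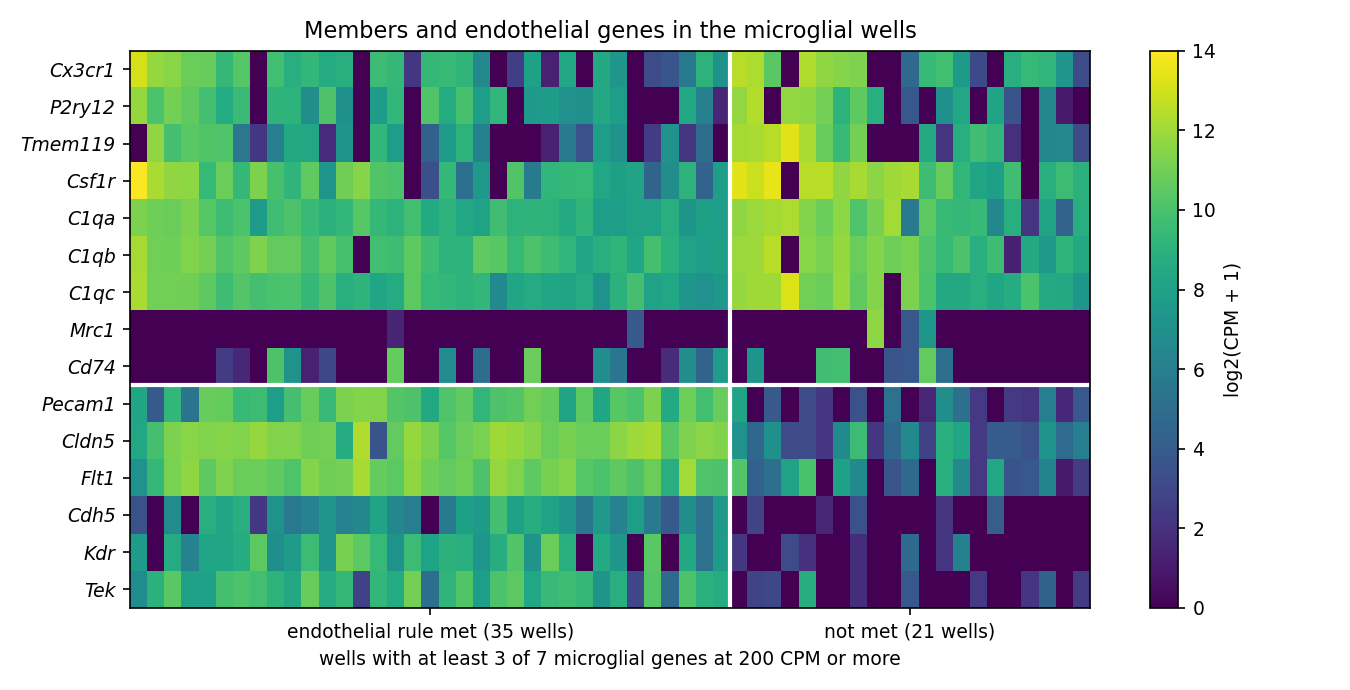
Level of the 9 genes (top 9 rows) and of 6 endothelial genes (lower rows) in the 56 microglial wells, 1 column a well, as log2(CPM + 1), with the 35 wells that met the endothelial rule on the left and the 21 that did not on the right. The C1q rows are filled in nearly every column, the receptor rows have gaps, and Mrc1 has no read in 51 of the wells.

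The 3 chains of C1q, which assemble into 1 protein, were found together in part of the wells that held any of them. Of 88 wells with any chain at 200 CPM or more, 41 had all 3 (46.6%, 35.9 to 57.5), 21 had 2 and 26 had 1. A rule that uses no C1q gene was also applied: of the 28 wells with at least 2 of Cx3cr1, P2ry12 and Tmem119 at 200 CPM, 25 had all 3 chains (89.3%, 71.8 to 97.7), against 16 of the 829 other wells (1.93%, 1.11 to 3.12). In those 28 wells C1qa ran from 87.9 CPM (median 1108) to 5010 CPM, while in the other 829 it had a median of 0 and a highest value of 4259.5 CPM. The ranges overlap, so a well with strong C1q need not pass the receptor rule.

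Within the 41 wells with all 3 chains, C1qb was usually the strongest. Per kilobase of exon, C1qb made up a median of 46.6% of the summed level (27.1 to 76.6%), C1qa 35.2% (6.84 to 53.1%) and C1qc 18.2% (10.0 to 46.2%). On that scale C1qb was the strongest chain in 33 wells, C1qa in 7 and C1qc in 1. In CPM, without the division by exonic length, the median shares were 40.6% for C1qb, 30.3% for C1qa and 28.8% for C1qc. The gap between C1qa and C1qc thus depends on their exonic lengths of 1040 and 1931 bases. Across all 857 wells the Pearson correlation of log2(CPM + 1) was 0.76 between C1qa and C1qc, 0.75 between C1qa and C1qb and 0.72 between C1qb and C1qc, and 0.67 between Cx3cr1 and P2ry12. Tmem119 correlated at 0.35 to 0.46 with the other 6 microglial genes, Cd74 at 0.23 to 0.30, and Mrc1 at no more than 0.17. These are descriptions: the wells share sets, rows, columns and depth, and most are at or near 0.

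**Figure D2:**
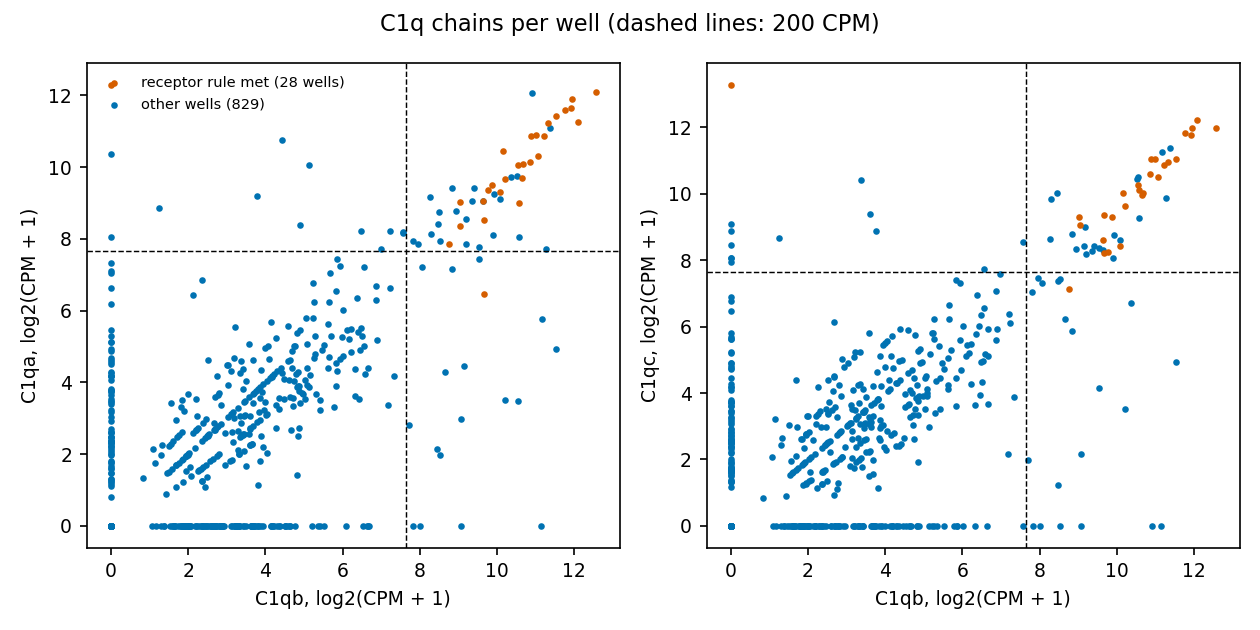
C1qa (left) and C1qc (right) against C1qb in each of the 857 wells, as log2(CPM + 1), with the 28 wells that met the receptor rule in orange, the 829 others in blue and dashed lines at 200 CPM. Of the orange wells, 25 of 28 have all 3 chains above 200 CPM.

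Microglial genes were far more frequent in wells with endothelial genes. Of 76 endothelial wells (at least 3 of Pecam1, Cldn5, Flt1, Cdh5, Kdr and Tek at 200 CPM or more), 35 were also microglial (46.1%, 34.5 to 57.9), against 21 of 781 other wells (2.69%, 1.67 to 4.08). The difference had the same direction in each set, with 17 of 36 endothelial wells against 9 of 203 others in 1025s_182s, 2 of 7 against 2 of 342 in 600s_182s, and 16 of 33 against 10 of 236 in 613s. The share of microglial wells was 1.80% among wells with none of the endothelial genes at 200 CPM, 10.4% with 1, 25.0% with 2, 23.5% with 3, 47.8% with 4, 52.0% with 5 and 63.6% (30.8 to 89.1, 7 of 11) with all 6. Depth varied along these steps, with medians of 280536 reads at 0 genes, 108718 at 1, 294000 at 2, 198936 at 3, 316338 at 4, 453390 at 5 and 473998 at 6. The interval at 3 genes (6.81 to 49.9) overlaps that at 6, and the steps were not thinned. For the split into endothelial and other wells, median depth was 336336 reads in endothelial wells and 274269 in other wells. With every well thinned to 50000 reads the shares were 43.6% and 2.82%, and with a floor of 50 reads behind each CPM value 46.4% and 2.79%.

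All 9 genes except Mrc1 were counted more in endothelial wells. Counts were summed over the wells of a class and scaled to CPM, 1 CPM was added, and a gene counted as higher or lower if the classes then differed at least 2-fold with 10 CPM or more in the higher class. By this rule of size, 8 of the 9 genes were higher in endothelial wells, where 19.4% of the 12418 genes compared were higher (23.6% were lower). Their median log2 ratio over the 8 compared was 3.30, beside -0.04 over all genes compared. Markers of other cell types were higher in the same wells: 6 of 6 smooth muscle genes (median log2 ratio 4.54; summed level 2078 against 104 CPM), 5 of 5 erythrocyte genes (3.76; 300.1 against 13.6 CPM), 4 of 4 neutrophil and monocyte genes compared (3.73; 200.3 against 19.4 CPM) and 6 of 6 pericyte genes (2.99; 1569 against 118 CPM). Their part in the result was not tested. P2ry12, at 294 CPM in endothelial wells and 24.9 CPM in other wells, had a log2 ratio of 3.51. C1qb had 592 and 52.5 CPM (log2 ratio 3.47), C1qa 433 and 41.3 CPM (3.36), C1qc 439 and 44.9 CPM (3.26), Cx3cr1 398 and 42.4 CPM (3.20) and Csf1r 593 and 94.5 CPM (2.64), endothelial wells first. The ratio of Tmem119 was lower, at 1.67, with 227 CPM in endothelial wells and 70.8 CPM in other wells. It was 0.99 within set 1025s_182s and 0.63 within 613s, under 2-fold in both sets that hold most endothelial wells, and 4.28 within 600s_182s.

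Counts of wells at 200 CPM or more put the C1q chains first. C1qa reached it in 42 of 76 endothelial wells against 21 of 781 other wells, C1qb in 39 against 29, C1qc in 37 against 23, Csf1r in 26 against 28, Cx3cr1 in 22 against 15, P2ry12 in 21 against 12, Tmem119 in 17 against 43 and Cd74 in 7 against 15. Mrc1 did so in 0 endothelial wells and 1 other well. The C1q chains were thus at this level in about every other endothelial well, and the receptors in fewer. The highest single values of C1qa, C1qb, C1qc, P2ry12 and Tmem119 nevertheless lay outside endothelial wells.

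**Figure D3:**
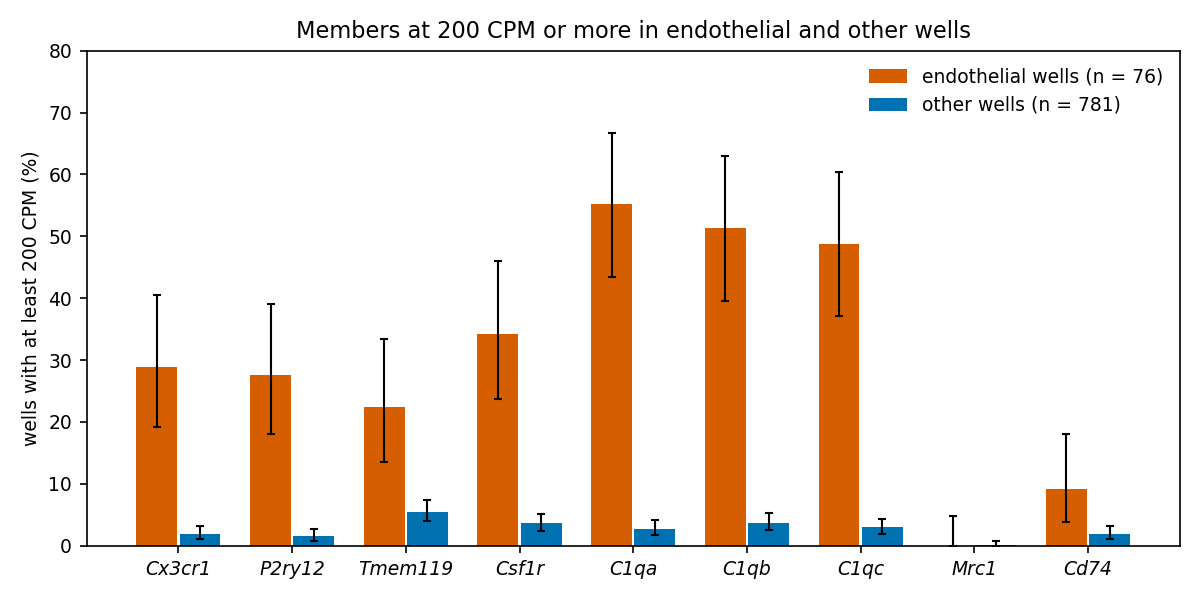
Share of the 76 endothelial wells (orange) and of the 781 other wells (blue) with at least 200 CPM of each gene, with exact 95% intervals. C1qa stands highest, at 55.3% of endothelial wells against 2.69% of other wells, and Tmem119 has the highest share of other wells, 5.51%.

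Wells of other cell types held microglial genes mainly where endothelial genes were present too. Of 19 pericyte wells 9 were microglial, all among the 16 that were endothelial as well (29.9 to 80.2%), and 0 of the other 3 (at most 70.8%). Of 20 smooth muscle wells 9 were microglial, all among the 15 endothelial ones (32.3 to 83.7%), and 0 of the other 5 (at most 52.2%). These intervals overlap, so the few pericyte and smooth muscle wells do not settle the difference by themselves. Fibroblast wells were microglial in 9 of 18 cases when endothelial and in 3 of 90 (3.33%) when not, and oligodendrocyte wells in 19 of 44 against 12 of 680 (1.76%). None of the 271 OPC wells was microglial (0%, at most 1.35%), and no OPC well was endothelial.

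The level of endothelial genes was close in endothelial wells with and without microglial genes. Endothelial wells with microglial genes had a summed level of the 6 endothelial genes of 6575 CPM, against 6741 CPM in endothelial wells without them, and 0 of the 6 genes differed 2-fold (median log2 ratio -0.02). In this comparison the microglial rule chose the wells, so nothing is read from the 8 of 9 genes called higher in them (17.0% of 11593 genes were higher and 15.7% lower). Depth differed, with a median of 424273 reads in the 35 endothelial wells with microglial genes and 237031 in the 41 without.

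In the 35 wells that were both microglial and endothelial, the summed level of the 7 microglial genes was 1021 CPM at its lowest, 3688 at its median and 39437 at its highest, against 1483, 9486 and 34792 CPM in the 21 microglial wells that were not endothelial. The ranges overlap almost fully. Set by set the medians were 4721 and 5442 CPM in 1025s_182s, 8460.00 and 15131 CPM in 600s_182s with 2 wells each, and 3238 and 6930.5 CPM in 613s. Of the 9 genes 0 were called higher and 3 lower in the endothelial ones (30.7% and 23.1% of 11760 genes): Tmem119 with 322 against 1207 CPM (log2 ratio -1.90), Csf1r with 985 against 2590.2 CPM (-1.39), and Mrc1, whose value rests on 1 well described below. C1qb, with 967 against 1408 CPM (-0.54), and the remaining genes stayed within 2-fold. All 7 microglial genes nevertheless pointed down, with log2 ratios from -1.90 to -0.54 and 4814 against 9916 CPM in sum. Of 24 further microglial identity genes 13 were lower and 0 higher (median log2 ratio -1.03). Why the levels differed was not tested.

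Reads of the 9 genes were also scattered thinly over wells that met no microglial rule. The well names carry a row letter and a column number, and the scatter followed them. Among wells under 200 CPM of C1qb, 324 of 426 (76.1%, 71.7 to 80.0) had at least 1 read of it if a well in the same row or column of their set held 500 reads or more of C1qb, against 61 of 363 (16.8%, 13.1 to 21.1) if none did. The median was 3 reads in the wells with any in the first case and 1 in the second. The direction was the same within each set, at 55.1% against 12.2% in 1025s_182s, 91.0% against 7.35% in 600s_182s and 86.9% against 53.6% in 613s.

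The other genes had the same direction along rows and columns, Mrc1 being given with its well below. With a rich well in the row or column, any read was found in 73.7% of wells for Cx3cr1, 74.3% for P2ry12, 65.0% for Tmem119, 79.9% for Csf1r, 73.6% for C1qa, 76.1% for C1qc and 53.5% for Cd74. Without one the shares were 12.1% for Cx3cr1, 14.1% for P2ry12, 22.1% for Tmem119, 31.8% for Csf1r, 18.0% for C1qa, 22.9% for C1qc and 14.7% for Cd74. Median depth was 256134 reads in the wells of a rich row or column of C1qb and 293367 in the others. Sharing a row without the column (75.8% for C1qb) and a column without the row (70.8%) gave similar values. The cause was not tested.

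**Figure D4:**
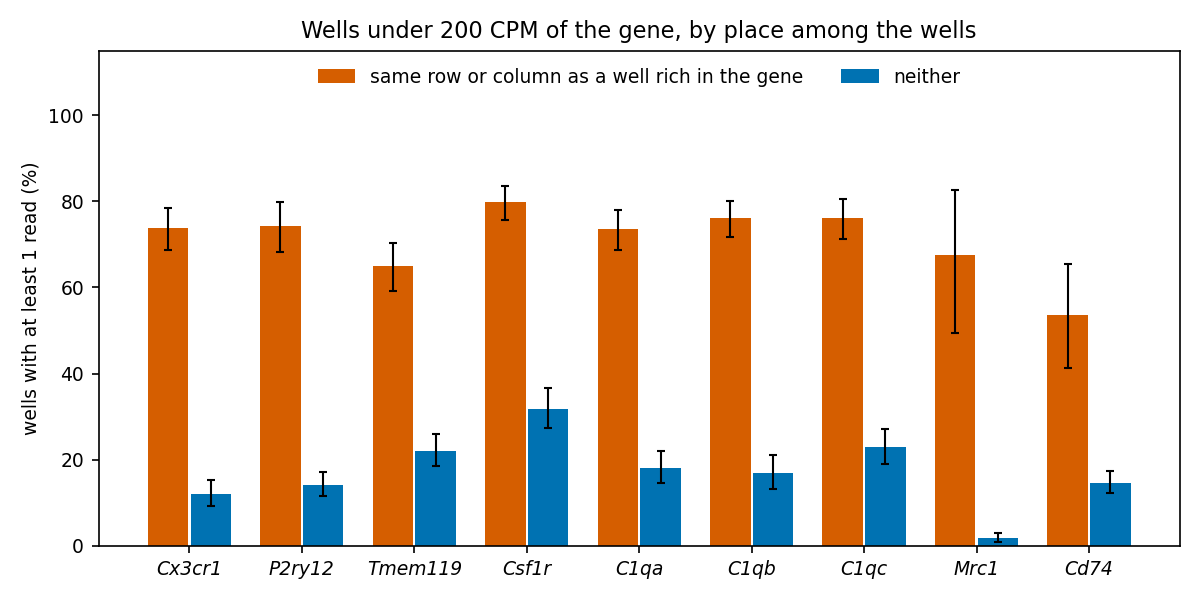
Share of wells with at least 1 read of each gene among wells under 200 CPM of it, with exact 95% intervals, for wells that share a row letter or column number with a well holding 500 reads or more of the gene (orange) and for wells that share neither (blue). The orange bars lie between 53.5% and 79.9% and the blue ones between 1.70% and 31.8%.

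OPC wells, which should lack these genes, were set beside endothelial wells that did not meet the microglial rule. Most OPC wells (205 of 271) lie in set 600s_182s, which holds 7 of the 76 endothelial wells, and the scatter away from rich wells differed by set: for C1qa it was 17.7% of wells in 1025s_182s, 6.97% in 600s_182s and 46.8% in 613s. Pooled over sets, C1qa had at least 1 read in 10 of 21 endothelial wells away from rich rows and columns (47.6%, 25.7 to 70.2), against 15 of 176 OPC wells (8.52%, 4.85 to 13.7). Within sets the shares were 5 of 11 endothelial against 1 of 15 OPC wells in 1025s_182s, 1 of 3 against 10 of 144 in 600s_182s, and 4 of 7 against 4 of 17 in 613s, with few endothelial wells and overlapping intervals in each. C1qb within 613s had 4 of 6 endothelial against 6 of 11 OPC wells (66.7%, 22.3 to 95.7, and 54.5%, 23.4 to 83.3), so the wells could not be told apart there. For Cx3cr1 the pooled shares were 5 of 24 endothelial wells (20.8%, 7.13 to 42.2) against 15 of 193 OPC wells (7.77%, 4.42 to 12.5). Over all 41 endothelial wells under the microglial rule, C1qa had a median of 10.3 CPM and stood at 106 CPM (100 to 112) from summed counts, with 8 wells at 200 CPM or more and a highest value of 1059 CPM. In the 271 OPC wells the median was 0 and the summed level 3.61 CPM (3.22 to 4.04). After thinning, 51.2% of those endothelial wells and 14.4% of OPC wells had C1qa. Median depths were 237031 and 262172 reads.

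Tmem119 was also high in wells without the other microglial genes. Of 65 wells with exactly 1 of the 7 genes at 200 CPM or more, 34 had Tmem119 alone, and 26 of these 34 met the fibroblast rule (at least 3 of Dcn, Lum, Col1a1, Col1a2, Col3a1 and Pdgfrb at 200 CPM). Only 56.2% of Tmem119 reads lay in microglial wells, against 84.0% to 94.0% for the other 6 genes. In fibroblast wells that were not microglial, Tmem119 had 304 CPM (298 to 311), against 8.45 CPM (8.08 to 8.83) in wells meeting neither rule, a log2 ratio of 5.01. It reached 200 CPM in 28 of 96 such fibroblast wells (29.2%, 20.3 to 39.3) against 8 of 705 others (1.13%, 0.491 to 2.22). The 705 include 8 smooth muscle wells, which had 157 CPM of Tmem119 (139 to 178). Of these 8, 2 reached 200 CPM (25.0%, 3.19 to 65.1), both in set 613s. In the 85 fibroblast wells that met no endothelial or smooth muscle rule, Tmem119 had 302 CPM (295 to 309), and 24 reached 200 CPM.

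In the 28 fibroblast wells with Tmem119 at 200 CPM its median level was 716 CPM. Microglial wells were set aside, so at most 1 other of the 7 genes could reach 200 CPM in any of these wells, and the following counts are a description. Cx3cr1, P2ry12, C1qa and C1qc reached 200 CPM in 0 of them, and Csf1r and C1qb in 1 each. Across the 96 wells the summed level of the other 6 genes was 70.8 CPM, against 74.1 CPM in the 705 wells without the fibroblast rule. The summed level of Tmem119 was higher in fibroblast wells of each set, with 260 against 23.0 CPM in 1025s_182s, 118 against 0.954 in 600s_182s and 401 against 11.1 in 613s. In 600s_182s this rests on few wells: 2 of 23 fibroblast wells reached 200 CPM (8.70%, 1.07 to 28.0), and the median was 0. The counts were 11 of 41 in 1025s_182s and 15 of 32 in 613s. Of the 9 genes 3 were called higher and 1 lower in the 96 fibroblast wells (21.6% and 24.2% of 12352 genes). Cx3cr1 was among those called higher (13.8 against 5.16 CPM) but stood at 3.10 CPM without well A8 of set 1025s_182s, and Csf1r, the 1 called lower, had 9.69 against 26.7 CPM.

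**Figure D5:**
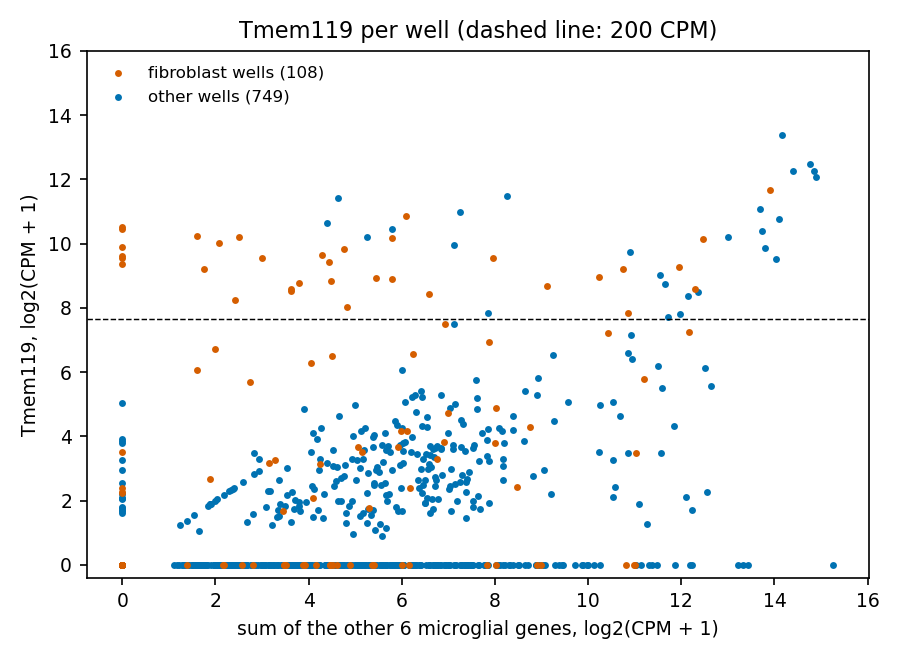
Tmem119 against the summed level of the other 6 microglial genes in each of the 857 wells, as log2(CPM + 1), with the 108 fibroblast wells in orange, other wells in blue and a dashed line at 200 CPM. Orange points fill the upper left, where Tmem119 is above 200 CPM and its partners are low.

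Mrc1 came almost whole from 1 well. Well G7 of set 600s_182s had 3141 CPM of Mrc1, 85.5% of all its reads, and the next well, C9 of set 1025s_182s, had 171 CPM. In well G7 all 8 markers of that list (Mrc1, Cd163, Pf4, F13a1, Lyve1, Cbr2, Ms4a7 and Stab1) were at 200 CPM or more. Its Csf1r stood at 3034 CPM and its C1qa, C1qb and C1qc at 2197, 2658 and 2665 CPM, while Cx3cr1 and Tmem119 had no read and P2ry12 had 439 CPM. It met the microglial rule through the shared genes, and in all 2 of the 56 microglial wells had at least 3 border macrophage markers at that level, against 1 of the 801 others. Without it Mrc1 in microglial wells was 4.22 CPM, against 42.0 CPM with it and 0.198 CPM in the other 801 wells. Of the 37 other kept wells with an Mrc1 read under 200 CPM, 23 shared row G or column 7 with it (23 of 34 wells there, against 14 of 822 elsewhere).

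Cd74 stood apart from the microglial genes too. It reached 200 CPM in 22 wells, of which 7 were microglial, 7 endothelial, 4 both and 7 fibroblast without being microglial. At least 20 CPM of all 3 of H2-Aa, H2-Ab1 and H2-Eb1, chains of the MHC class II molecules that Cd74 escorts, were present in 11 of the 22 and of none in 3. Of the 22 wells, 6 lie in row A of set 613s, described below. Those besides well A5 had 16 to 32 reads of Cd74, and A18 and A23 of them are among the 11. The well highest for Cd74, A8 of set 1025s_182s, had 2777 CPM of Cd74, 2991 CPM of H2-Aa and 2013 CPM of Cx3cr1 with 12.9 CPM of C1qa, 6.47 of C1qc and no read of C1qb. In endothelial wells Cd74 had 152 CPM and in other wells 14.2 CPM (log2 ratio 3.33), but the ratio was 1.86 within set 1025s_182s, -2.15 within 600s_182s and 3.76 within 613s, so its direction did not hold in every set. The endothelial level also leans on few wells: A5 of 613s had 1993 reads of Cd74, and I10 and O9 of 1025s_182s had 886 and 391. With the mean of well CPM in place of summed counts the ratio was 2.25.

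A row of wells, and the column of its richest well, stood out for Cd74. In row A of set 613s all 20 kept wells had at least 20 CPM of it (lowest 20.1, median 71.4, highest 1676 CPM), against 26 of the 249 wells in the other rows of that set, 0 of 18 row A wells of 600s_182s and 1 of 14 of 1025s_182s. No other gene of the table was at 20 CPM or more in each of those 20 wells and in at most 20% of the others. The row holds well A5, with 1993 reads of Cd74 and 1420 of H2-Aa. Its column, which lies in the other rows counted above, showed the same. Among wells of 613s under 200 CPM, 9 of 9 in the column of A5 but not its row had a Cd74 read (median 14 reads). So did 14 of 14 in its row but not its column (median 21 reads), against 63 of 234 in neither. The other 23 wells of row A, including those under 50000 reads, had 5 to 83 reads of Cd74 (median 20) and 2 to 16 reads of H2-Aa (median 7). What carried these reads was not tested.

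Genes outside the 9 with the most similar pattern were sought by the Pearson correlation of log2(CPM + 1) with the mean of the 7 microglial genes over 857 wells. The closest 10 were Ctss (0.82), Laptm5 (0.77), Selplg (0.75), Siglech (0.72), Fcer1g (0.71), Tyrobp (0.71), Fcgr3 (0.71), Fcrls (0.70), Trem2 (0.68) and Gpr34 (0.68). Of 29639 genes, Cd74 ranked 482 (0.33) and Mrc1 4945 (0.10). Ctss, a lysosomal protease, reached 200 CPM in 49 microglial wells and 14 others, and Siglech, a microglial lectin, in 18 and 1.

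Gene lists around the microglial programme were set between microglial and other wells, where 17.9% of 12405 genes were higher and 20.9% lower. All 9 genes were called higher there: 7 of them made the rule, Mrc1 rests on well G7, and Cd74 had 227 against 9.88 CPM. Of 24 further microglial identity genes 22 were higher (median log2 ratio 5.56, beside -0.06 over all genes), among them Ctss (1048 against 15.2), Laptm5 (929 against 19.0), Selplg (744 against 10.7), Fcrls (528 against 3.46) and Siglech, with the widest ratio at 389 against 1.88 CPM. Sall1, at 31.8 against 17.4 CPM, and Adgrg1, a receptor that OPCs use as well, at 343 against 340.3 CPM, were within 2-fold.

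Border macrophage genes were higher for 8 of the 9 compared, but most of these calls rest on well G7: without it 4 genes could be compared and 3 were higher. Fcgrt had 529 against 91.9 CPM, Stab1 122 against 7.07 and Pf4 33.2 against 0.957, and without G7 they stood at 524, 92.4 and 18.3 CPM. The summed level of the list was not particular to microglial wells. It was 799 CPM in endothelial wells with microglial genes and 607 CPM in those without, where 1 of 5 genes compared was higher (17.0% of all genes). Fibroblast wells without microglial genes had 670 CPM of it. Lyve1 had 29.3 against 0.251 CPM, but 1.57 CPM without G7, and Cbr2 29.7 against 0.395 CPM, but 8.14 CPM without it. Maf, at 24.6 against 15.7 CPM, was within 2-fold. MHC class II genes were higher for 6 of 6, with H2-DMa at 117 against 8.29 CPM, H2-Aa at 102 against 4.21, H2-Ab1 at 97.0 against 7.18 and H2-Eb1 at 93.1 against 5.98. The summed levels of H2-Aa and H2-Ab1 lean on few microglial wells. Well A5 of set 613s had 1194 CPM of H2-Aa and 1215 CPM of H2-Ab1. Well C9 of set 1025s_182s had 967 and 520 CPM, and I10 of that set 414 and 493 CPM. Wells F7 of 613s and D2 of 1025s_182s had no read of H2-Aa. Levels without A5, C9 and I10 were not computed. Other leukocyte genes were higher for 6 of 6, led by Lyz2, lysozyme of myeloid cells, at 262 against 5.20 CPM.

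The rest of the complement system was mixed. Of 21 cascade genes and regulators 17 could be compared, 10 were higher and 1 lower (median log2 ratio 1.63). The higher ones included receptors of leukocytes, Itgb2 at 159.6 against 0.764 CPM, C3ar1 at 123 against 1.20 and C5ar1 at 95.9 against 1.09, and the regulator Cd59a at 199 against 20.3 CPM. Of the proteases that join C1q in the C1 complex, C1s1 was called higher, at 36.4 against 13.9 CPM, and C1ra was within 2-fold, at 28.6 against 17.2 CPM. C3 was under 1 CPM in both classes, and C4b, the 1 called lower, had 3.48 against 16.2 CPM. In endothelial wells against other wells 9 of 15 genes compared were higher and 2 lower (19.4% and 23.6% of all genes). Between endothelial wells with and without microglial genes 4 of 15 were higher and 3 lower (17.0% and 15.7% of all genes). Their summed levels there were 2222 and 2277 CPM. In fibroblast wells, with microglial wells set aside, C1ra, C1s1 and Serping1 had log2 ratios of 5.67, 5.05 and 6.48 over other wells.

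Ligands of the microglial receptors were measured in the same wells. Of 6 compared 4 were higher in microglial wells: Pros1 at 271 against 39.7 CPM, Gas6 at 288 against 120.3, Csf1 at 94.5 against 30.4 and Il34 at 79.3 against 37.6. Cx3cl1, the ligand of Cx3cr1, had 129 against 119 CPM. In endothelial wells against other wells 3 of the 6 compared were higher and 1 lower (19.4% and 23.6% of 12418 genes). Gas6 and Pros1 were among the higher ones, at 424 against 103 CPM and 226 against 40.6 CPM. Csf1, a ligand of Csf1r, was the lower one, at 17.3 against 37.5 CPM.

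Genes of disease-associated microglia were mixed: 4 of 9 were higher and 0 lower, Clec7a at 49.4 against 0.186 CPM, Ctsd at 1601 against 783 and Spp1 at 223 against 106 among them, whereas Apoe had 1601 against 1457 CPM and Cd9 522 against 913. Immediate early and stress genes that respond to dissociation were higher for 14 of 15, with Fos at 1848 against 742 CPM, Dusp1 at 1395 against 260.4, Zfp36 at 1070.5 against 140.3 and Ccl3 at 256 against 1.38. They were higher for 12 of 13 in endothelial wells against other wells and for 9 of 10 in fibroblast wells against other wells, so they were higher with several cell types. Their part in the values above was not tested.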

How the data were processed

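Single cells sorted to wells were read with SMART-seq2, and the deposited table holds raw counts of reads per gene and well, made by the authors on GRCm38; the submitters' processing notes name featureCounts (Subread 1.4.6-p5), TopHat2 2.1.1 and SAMtools 0.1.18. Not given in the sources used here are the annotation, the strand setting and the treatment of reads with several matches. There are no molecular identifiers, so all intervals cover counting error only.

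The members and gene lists were chosen with earlier results of these data known. Wells with at least 50000 reads were kept (857 of 1152), and 295 were left out. Counts were divided by the well's total to give CPM. A well met a cell type rule with at least 3 listed markers at 200 CPM. Classes were compared by CPM of summed counts with 1 CPM added. Genes with at least 10 CPM in the higher class were called at a 2-fold ratio. Thinning drew 50000 reads per well. Doublets were not called, since co-capture was the quantity of interest. The genes named are the members, the genes of the lists and the 10 genes with the closest pattern. The ratio step was tested on simulated data. Wells are not replicates, so no p-value is given. Coordinates and exonic lengths came from GENCODE vM21, in which 42052 of 46517 symbols (90.4%) matched, and promoters from RefSeq on GRCm38.p6. Promoters of 5 members were found. Work used Python 3.11.15, numpy 2.4.6, pandas 2.3.3, scipy 1.17.1 and matplotlib 3.10.9. Alternatives changed the thresholds, the depth minimum, the number of markers, the total, the set left out, the pseudocount and the filter on low values. Some list genes are not reported here by name.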

Additional observations from a re-analysis of the deposited data

Results flagged for a closer look

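The 295 wells under 50000 reads, which enter no comparison above, also held reads of all 9 genes, above the 3 counts that a count of 0 allows. Over their 7429132 reads in all, C1qb had 2501 reads, Csf1r 1249, C1qc 1063, Cx3cr1 1050, C1qa 932, Cd74 642, P2ry12 500, Tmem119 227 and Mrc1 20. As CPM, C1qb stood at 337 and Mrc1 at 2.69 in these wells.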

How the results depend on the processing

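Of the 5 results on wells and gene counts, 67 values under alternatives stayed close to the reported ones and 7 moved. The number of microglial wells, 56 as reported, was 150 at a threshold of 20 CPM, 37 at 500 CPM, 30 without set 1025s_182s and 30 without set 613s, the last 2 with fewer wells by construction. The microglial share of endothelial wells, 46.1% as reported, was 33.3% at 500 CPM, and that of other wells, 2.69% as reported, was 8.88% at 20 CPM and 4.33% without set 600s_182s. In each of these settings the share was higher in endothelial wells. Of single genes, 67 ratios moved beyond their counting interval and 13 did not, and the ratio of Cd74 turned to -2.15 within set 600s_182s, which has 7 endothelial wells; the cause was not tested. The count of the 9 genes higher in endothelial wells was 8 under every alternative run except without set 600s_182s, where it was 7. Leaving out row A of set 613s, leaving Tmem119 out of the rule, asking for 50 reads, leaving out the highest well or well G7, and the shares of OPC and endothelial wells by set were chosen after seeing the data. No paired analysis was possible because the replicate numbers only name wells and no result comes from a test. Low depth limits weak values: 1 read is 20 CPM in the shallowest kept wells.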
